A study of Homo sapiens with 8 samples.

Results

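The large subunit of the cytosolic ribosome carries the peptidyl transferase centre, the exit tunnel for the new peptide and the stalks that recruit elongation factors, and it is built from ribosomal RNA and a fixed set of proteins, each needed in about equal numbers. The mRNAs of these proteins begin with a cytosine and a run of pyrimidines, the terminal oligopyrimidine (TOP) motif, through which the mTOR kinase and the RNA-binding protein LARP1 set their translation and stability. They are among the most abundant mRNAs of growing cells such as HEK293, a cell line that was made from human embryonic kidney. Described here are 45 genes for proteins of this subunit, chosen by gene symbol without pseudogenes, out of 60606 rows of a table of long-RNA read counts.

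The treated cells were transfected with a mimic of the 3' tRNA-derived RNA (tDR) of tRNA-Asp-GTC, and the control cells with a scramble mimic, both at 50 nM with Lipofectamine RNAiMax, and were collected after 48 hours. There were 4 tDR libraries and 4 control libraries, all from the same cell line with no other treatment in the labels. The labels do not say if each library was a culture of its own, so the p-values reflect the spread among these 8 libraries and that spread may be technical. Total counts were between 5848305 and 9237986 in the tDR libraries and between 6536554 and 10557740 in the control libraries. Control replicate 1 departed most from its own group over the genes described here, and calls that turn on it are given with and without it. All 7 HEK293 markers listed (VIM, KRT8, KRT18, NEFM, NEFL, PAX2 and LHX1) passed the filter on low counts, with 2 lower (NEFM and NEFL) and 2 higher (KRT8 and PAX2) in the tDR libraries. Of the markers of other cell types, CD3E, ALB and HBB stayed under 1 CPM in every library. PECAM1, an endothelial gene, had 3.76 to 4.57 CPM in the tDR libraries and 0.856 to 1.91 CPM in the control libraries and was called higher. PTPRC, a leukocyte gene, had 2.71 to 4.28 CPM in the tDR libraries and 1.75 to 3.91 CPM in the control libraries. The part of these markers in the results was not tested.

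The TOP motif of these genes is shown first, because it is what most of the members share in sequence. RefSeq promoter windows (GRCh38.p14, 250 bases before to 50 bases after each start) were matched by symbol for 38 of the 45 members. A cytosine followed by 4 or more C or T, beginning between 5 bases before and 15 bases after the annotated start, was found in 36 of the 38 (94.7%), against 37.5% of all 27305 genes with a window and 41.0% of the tested genes with one. The C nearest to the annotated start that met this rule lay at the start itself in 28 members. From that C onward the pyrimidines numbered between 5 and 19, with a median of 8, and pyrimidines before it in the genome were not counted. The motifs were searched on the sense strand for the pyrimidine run and on both strands for the other motifs. CCGGAAG, the core of the ETS and GABP site, was present in 34.2% of the 38 member genes, against 12.2% of all genes and 19.2% of tested genes. AAGATGGC, a YY1-type site, was present in 10.5% of the member genes, against 3.52% of all genes and 5.61% of tested genes. TATAAA was present in 7.89% of the member genes, against 13.99% of all genes and 9.78% of tested genes. The promoters below run from 45 bases before to 15 bases after the start on the gene's strand, with that C and the pyrimidines after it in capitals. In each of the 8 the base before the capitals is also a C or T, so the genomic run extends upstream of the annotated start. The first 5 belong to members with large decreases, and the last 3 to members with small ones (RPL10) or with values that did not pass the test (RPLP0, RPL28). RPL6, with a log2 fold change of -0.36, also had a window, which held no such run and is not printed.
RPL24, chr3:101686704-101686763, minus strand: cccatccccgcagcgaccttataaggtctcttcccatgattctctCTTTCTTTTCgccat
RPL41, chr12:56116588-56116647, plus strand: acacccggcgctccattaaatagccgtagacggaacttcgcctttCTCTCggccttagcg
RPL21, chr13:27251513-27251572, plus strand: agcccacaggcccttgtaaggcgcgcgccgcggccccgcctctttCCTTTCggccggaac
RPL35, chr9:124861943-124862002, minus strand: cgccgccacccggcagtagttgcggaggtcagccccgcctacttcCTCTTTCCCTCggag
RPL11, chr1:23691761-23691820, plus strand: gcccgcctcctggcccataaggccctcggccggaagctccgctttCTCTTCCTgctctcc
RPL10, chrX:154398332-154398391, plus strand: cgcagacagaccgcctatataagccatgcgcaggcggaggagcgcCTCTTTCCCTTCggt
RPLP0, chr12:120201097-120201156, minus strand: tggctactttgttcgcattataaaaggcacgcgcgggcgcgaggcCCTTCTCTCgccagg
RPL28, chr19:55385887-55385946, plus strand: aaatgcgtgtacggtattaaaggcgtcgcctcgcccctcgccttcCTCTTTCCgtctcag

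After transfection of the tDR most large-subunit mRNAs were lower than with the scramble, each by a small amount. Of the 45 members, 39 had enough counts to be tested, and of these 34 fell, 0 rose and 5 did not pass the test, where 11.4% of all 17184 tested genes were called lower and 12.8% higher (quasi-likelihood test of edgeR, with an adjusted p under 0.05 by Benjamini-Hochberg over all tested genes). All 39 fitted log2 fold changes were below 0, with a median of -0.25, a level 15.8% lower, beside a median of 0.02 over all tested genes. They lay between -0.44 for RPL24 and -0.12 for RPL28. The decrease was over 20% in 5 called members and under 15% in 13. In 27 members every tDR library was below every control library, as was the case for 10.8% of all tested genes. In bulk libraries fewer cells expressing a gene and less RNA per cell cannot be told apart, and values are relative to the other RNAs of the same library.

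**Figure D1:**
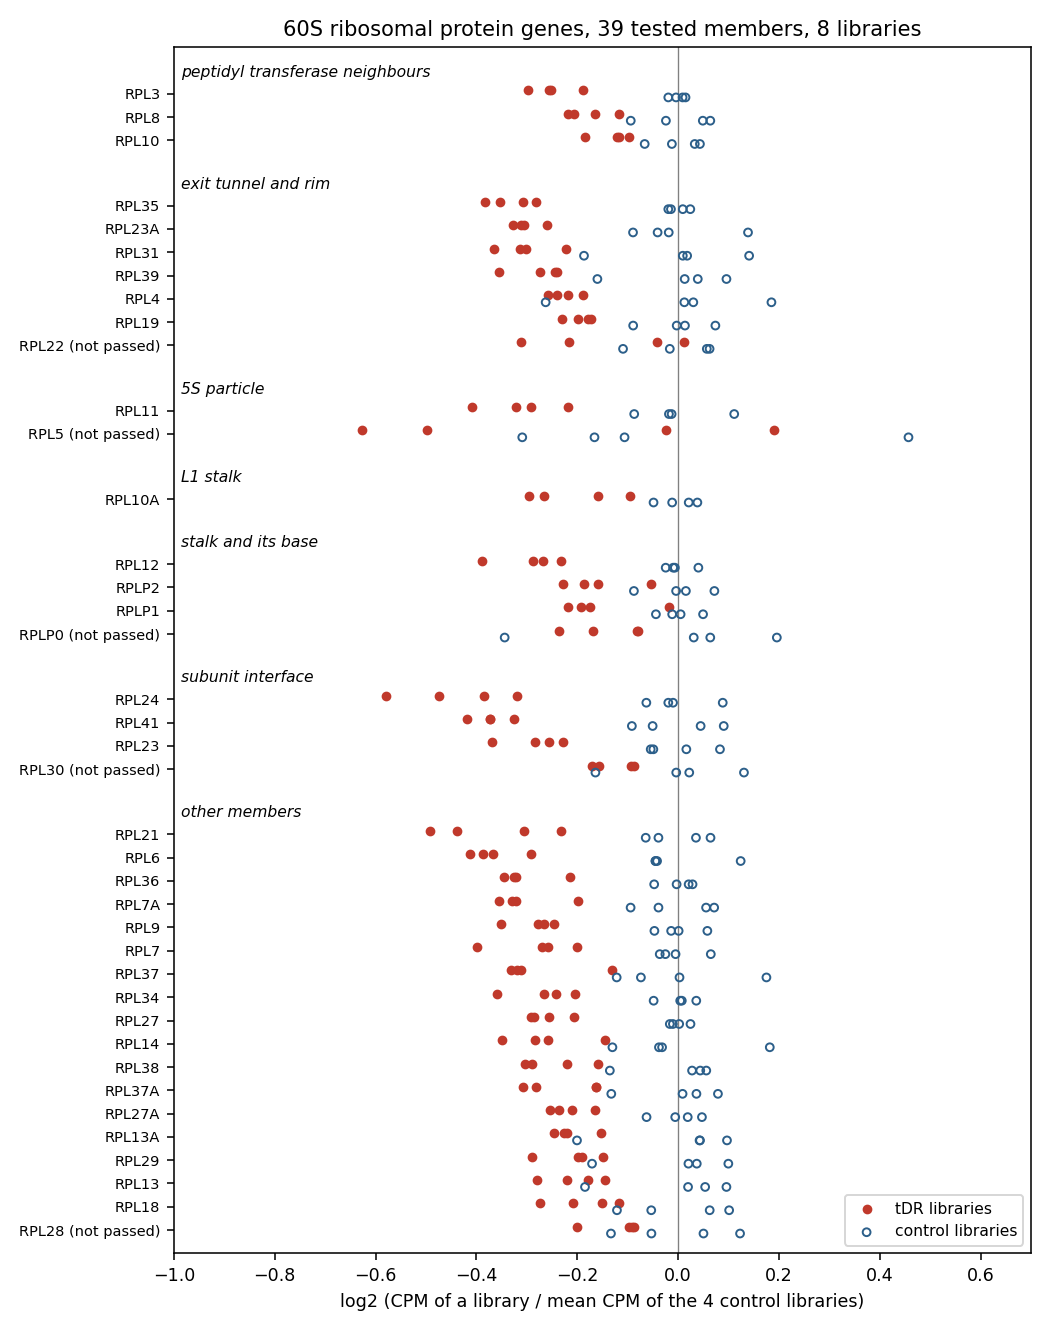
Level of each of the 39 tested large-subunit genes in each library, as the log2 of its CPM over the mean CPM of the 4 control libraries. Filled red points are tDR libraries, open blue points are control libraries, and members are grouped by role. Most red points lie to the left of the blue ones, with the widest gaps at RPL35, RPL24 and RPL6, and the groups overlap in the 5 members that did not pass and in RPL4, RPLP1, RPLP2, RPL13, RPL13A, RPL18 and RPL29.

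The count of calls depended on how length, GC content and level were treated. These genes are short and abundant, and short or abundant genes of other kinds were also lower in the tDR libraries. Among protein-coding genes that encode no ribosomal protein, those with a mean log2 CPM of 8 or more numbered 547, had a median log2 fold change of -0.14 and were called lower in 55.0% of cases, while the 30 members at that level had a median of -0.25 and 28 were called lower. Between 6 and 8 the 3489 other genes had a median of -0.08 with 26.4% lower, and the 7 members there had a median of -0.27 with 6 lower. By transcript length, the 156 other coding genes of up to 800 bases had a median of -0.17 with 46.2% lower, and the 3464 longer than 4000 bases had a median of -0.02 with 14.5% lower. When a correction for length and GC content was fitted on abundant coding genes (mean log2 CPM of 4 or more), 18 of 37 members were lower. Their median was -0.10, where 13.4% of 8555 genes were lower and the median of all was -0.02. The members were among the genes used for that fit, so it can take up part of their own decrease. How much it took up was not tested. That correction was chosen after seeing the data. It used annotated transcript lengths that are too long for some members that stayed called, such as RPL27A and RPL14. A correction fitted over all genes gave 37 of 39 members lower, where 23.9% of genes were lower. A test among genes of mean log2 CPM of 6 or more gave 23 of 37 members, where 13.2% were lower. That test also rescaled the libraries on those genes alone. Scaling to library size alone gave 28 of 39 members and 5.28% of genes lower, and DESeq2 gave 35 of 39 members and 10.4% of genes. The split of all calls moved with the scaling, at 907 genes lower and 3295 higher with library size alone and 1235 lower and 2730 higher with upper quartile scaling, against 1962 lower and 2206 higher with TMM. Counts over olfactory receptor genes, which HEK293 cells are not expected to use, gauge background reads. These were 0.137 to 0.231 per kb in the tDR libraries and 0.0908 to 0.151 per kb in the control libraries, unscaled for library size. In tDR replicates 1 to 4 these genes held 339, 448, 489 and 573 of 5848305, 7142701, 7519204 and 9237986 total counts. In control replicates 1 to 4 they held 358, 374, 225 and 354 of 9374886, 8432736, 6536554 and 10557740. As a share of total counts, every tDR library was above every control library. With this background subtracted from every gene, 30 of 39 members and 7.6% of genes were lower. Beyond these values, the part of length, level and background in the members' decrease was not tested.

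**Figure D2:**
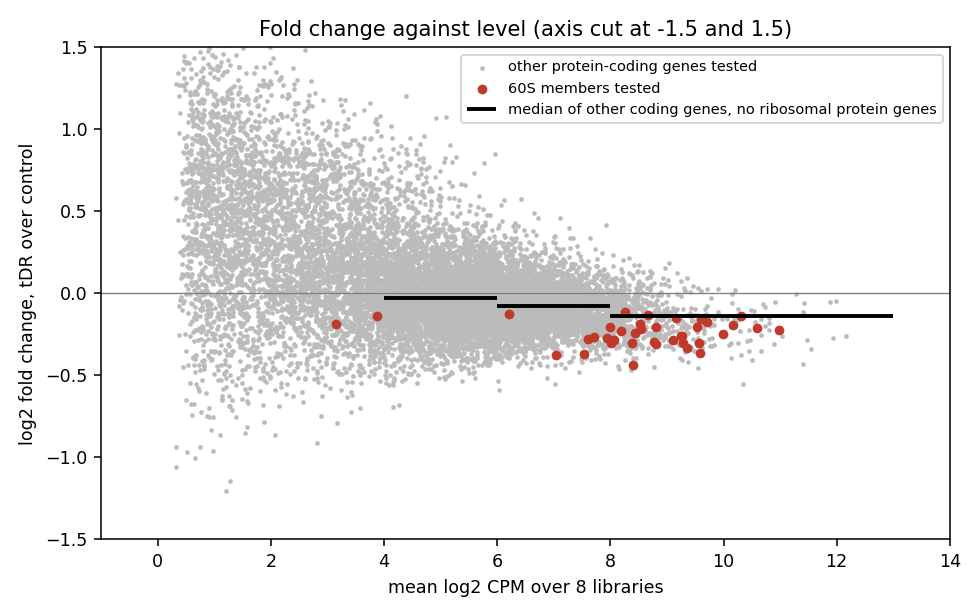
Log2 fold change, tDR over control, against the mean log2 CPM over the 8 libraries, with the vertical axis cut at -1.5 and 1.5. Red points are the 39 tested members, grey points other protein-coding genes tested, and black bars the medians of coding genes without ribosomal protein genes in 3 classes of level. The black bars step down from -0.03 to -0.08 and -0.14 with level, and 28 of the 30 members at 8 or above were called lower, with a median of -0.25.

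**Figure D3:**
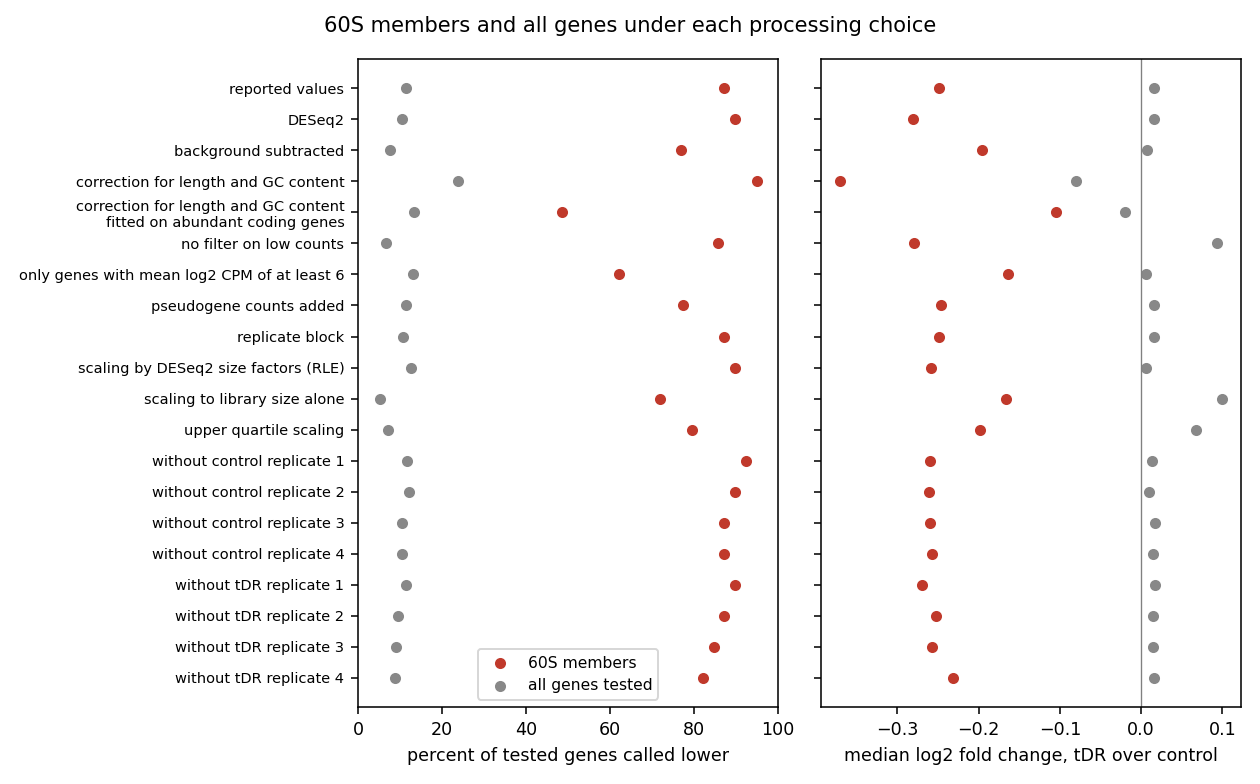
Percent of tested genes called lower in the tDR libraries (left) and median log2 fold change, tDR over control (right), for the large-subunit genes in red and for all tested genes in grey, under each processing choice. The red points lie above the grey ones on the left and below them on the right in every row, and come closest under the correction fitted on abundant coding genes.

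Added over all 45 members, the large-subunit genes held 1.98%, 1.96%, 1.92% and 1.90% of the counts in tDR replicates 1 to 4, against 2.07%, 2.22%, 2.18% and 2.18% in control replicates 1 to 4. The groups did not overlap, and the means were 1.94 ± 0.0362% in the tDR libraries and 2.16 ± 0.0638% in the control libraries (SD, n = 4 each). The Wilson 95% interval of each share was narrower than these gaps, at 1.97% to 1.99% in tDR replicate 1 and 2.06% to 2.08% in control replicate 1. These intervals cover counting error alone. Among the tDR libraries, replicate 1 had the highest value of its group in 22 of 37 well-counted members (mean log2 CPM of at least 6) and replicate 4 the lowest in 21. Control replicate 1 departed most from its group gene by gene, with a standard deviation of 0.113 on the log2 scale over these 37 members, from -0.33 at RPLP0 to 0.18 at RPL37. Its departures went with coding length (Spearman's rho -0.49), GC content (-0.56) and level (-0.57) over the 37 members, which share that library. Without control replicate 1, 36 of 39 members and 11.5% of genes were called lower.

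**Figure D4:**
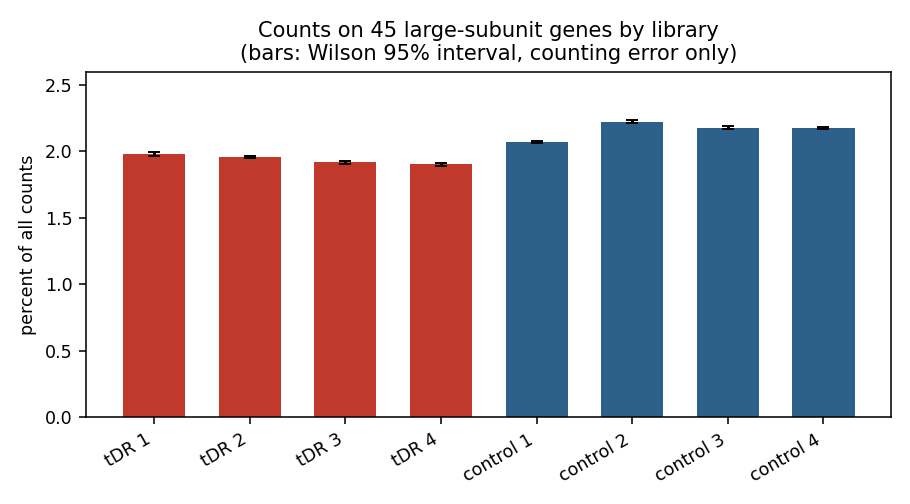
Summed counts of the 45 large-subunit genes as percent of all counts in each library, with tDR libraries in red and control libraries in blue; bars on the columns are Wilson 95% intervals, which cover counting error alone. The tDR libraries lie between 1.90% and 1.98% and the control libraries between 2.07% and 2.22%.

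The proteins nearest the peptidyl transferase centre are RPL3, RPL8 and RPL10, and all 3 mRNAs were lower, with a median log2 fold change of -0.18. RPL3 (chromosome 22, 39312882 to 39320389, minus strand; coordinates from GENCODE 29 on GRCh38) reaches into the centre with a long extension. It had 973, 929, 931 and 902 CPM in tDR replicates 1 to 4, against 1094, 1106, 1120.2 and 1116 CPM in control replicates 1 to 4. Every tDR library was below every control library, and the log2 fold change was -0.25 ± 0.0413 (SE; edgeR, adjusted p = 6.74e-06). RPL10 (chromosome X, 154389955 to 154409168, plus strand) joins late in assembly and helps shape the same centre. It had 390.2, 396, 389 and 372 CPM in the tDR libraries, against 404, 433, 419.7 and 436 CPM in the control libraries. The groups were close but did not overlap, and the decrease of 0.13 ± 0.0454 on the log2 scale was the smallest of those that passed (SE, edgeR, adjusted p = 0.0282). It did not pass without control replicate 4 (edgeR, adjusted p = 0.0674) or without tDR replicate 4 (0.1098). It also lost its call under 5 processing choices, with log2 fold changes of -0.04 among genes of mean log2 CPM of 6 or more, -0.05 with library size alone, -0.07 with the correction on abundant coding genes and -0.08 with background subtracted or upper quartile scaling.

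Proteins of the exit tunnel and its rim gave 6 lower mRNAs among 7 tested of 9, with a median log2 fold change of -0.28. RPL35 (chromosome 9, 124857880 to 124861981, minus strand) sits at the tunnel exit, where chaperones and the signal recognition particle dock. It had 587, 598, 557 and 568 CPM in the tDR libraries, against 731, 739, 719 and 717 CPM in the control libraries. The replicates of each group lay close together and far from the other group, with a log2 fold change of -0.33 ± 0.0429 (SE, edgeR, adjusted p = 3.57e-08). RPL23A, RPL31, RPL39, RPL19 and RPL4 also fell, with log2 fold changes between -0.30 for RPL23A and -0.20 for RPL19. RPL4, which lines the narrow part of the tunnel, varied most of them among the control libraries. Control replicate 1 held 1812 CPM of it, below every tDR library (1818 to 1907 CPM), while the other control libraries held 2192 to 2471 CPM. RPL22 (chromosome 1, 6185020 to 6209389, minus strand), which also binds other RNAs and is not essential in mice, did not pass. It had 15.2, 13.01, 12.2 and 14.7 CPM in the tDR libraries, against 14.01, 15.8, 14.9 and 15.7 CPM in the control libraries. The groups overlapped, and the log2 fold change was -0.14 ± 0.139 (SE, edgeR, adjusted p = 0.512). Once counts of pseudogenes named after RPL22 were added to it, this value was 0.004. RPL22 had 37.6 CPM per kb of coding sequence, against 893 for the median tested member RPL29, so the level of its mRNA is uncertain in this table.

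The 5S particle joins RPL5 and RPL11 to the smallest ribosomal RNA of the subunit, and when it is not built into ribosomes it binds MDM2 and stabilises p53. RPL11 (chromosome 1, 23691742 to 23696835, plus strand) fell. It had 428, 398, 406 and 374 CPM in the tDR libraries, against 537, 468, 491 and 493 CPM in the control libraries. The groups did not overlap, and the log2 fold change was -0.31 ± 0.0474 (SE, edgeR, adjusted p = 1.38e-06). RPL5 (chromosome 1, 92831983 to 92841924, plus strand) had 6.43, 5.89, 8.94 and 10.4 CPM in the tDR libraries, against 12.5, 7.34, 8.11 and 8.45 CPM in the control libraries. It overlapped between the groups, with a log2 fold change of -0.19 ± 0.194 (SE, edgeR, adjusted p = 0.520), which became 0.006 without control replicate 1. Its level per kb of coding sequence was 9.54 CPM, the lowest of the tested members, whose median member RPL29 had 893 CPM per kb. Over the 8 libraries RPL5 had 560 counts and pseudogenes named after it had 698, so the level of its mRNA is uncertain in this table.

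RPL10A, the protein of the L1 stalk that moves with the outgoing tRNA (chromosome 6, 35468408 to 35470785, plus strand), fell. It had 254, 243, 226 and 221 CPM in the tDR libraries, against 269, 275, 279 and 262 CPM in the control libraries. The groups did not overlap, and the log2 fold change was -0.20 ± 0.0496 (SE, edgeR, adjusted p = 0.00161). RPL10A did not pass with library size alone (edgeR, log2 fold change -0.12, adjusted p = 0.0585), among genes of mean log2 CPM of 6 or more (-0.11, 0.0827) or with the correction on abundant coding genes (-0.02, 0.799). On the other side of the subunit, the acidic stalk of RPLP0, RPLP1 and RPLP2 with RPL12 at its base recruits translation factors. Of these 4 mRNAs 3 fell, and over the 4 the log2 fold change had a median of -0.15. RPL12 (chromosome 9, 127447674 to 127451405, minus strand) had 409, 399, 393 and 367 CPM in the tDR libraries, against 494, 477, 478 and 472 CPM in the control libraries. The groups did not overlap, and RPL12 fell with a log2 fold change of -0.29 ± 0.0454 (SE, edgeR, adjusted p = 1.66e-06). RPLP1 and RPLP2 overlapped between the groups, since tDR replicate 1 had 590.2 CPM of RPLP1 and 792 CPM of RPLP2, against lowest control values of 579.5 and 774 CPM. Their log2 fold changes were -0.15 for RPLP1 and -0.16 for RPLP2 (edgeR, adjusted p = 0.0113 and 0.00689), and RPLP1 did not pass without tDR replicate 3 (adjusted p = 0.0559) or without tDR replicate 4 (0.0516). Both lost their call with background subtracted, library size alone, upper quartile scaling, the stricter filter and the correction on abundant coding genes, where RPLP1 lay between -0.10 and 0.002 and RPLP2 between -0.11 and -0.05. RPLP0 (chromosome 12, 120196686 to 120201235, minus strand), the scaffold of the stalk and a common reference gene in quantitative PCR, had 1247, 1249, 1121 and 1174 CPM in the tDR libraries, against 1040.0, 1512, 1349 and 1379.7 CPM in the control libraries. Control replicate 1 lay below all 4 tDR libraries and the other 3 control libraries above them. The log2 fold change of RPLP0 was -0.14 ± 0.0552 (SE, edgeR, adjusted p = 0.0549), and without control replicate 1 it was -0.24 and passed (adjusted p = 1.73e-06). RPLP0 also passed without tDR replicate 1 (edgeR, adjusted p = 0.0332), with DESeq2's size factors, with no filter and with the correction over all genes.

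At the face that meets the small subunit, RPL24, RPL41 and RPL23 fell and RPL30 did not pass, with a median log2 fold change of -0.33 over the 4. RPL24 (chromosome 3, 101681091 to 101686782, minus strand), whose tail forms a bridge to the small subunit, had the largest decrease of all tested members. It had 312, 298, 279.8 and 260.0 CPM in the tDR libraries, against 413, 372, 386 and 384 CPM in the control libraries. The groups did not overlap, and the log2 fold change was -0.44 ± 0.0498, a level 26.3% lower (SE, edgeR, adjusted p = 8.74e-10). RPL41 (chromosome 12, 56116586 to 56117943, plus strand), a peptide of 75 coding bases that also forms a bridge, had 118, 114, 110.2 and 114 CPM in the tDR libraries, against 157, 152, 142 and 138 CPM in the control libraries. Its groups were likewise apart, with a log2 fold change of -0.37 ± 0.0567 (SE, edgeR, adjusted p = 1.13e-06). RPL30 (chromosome 8, 98024851 to 98046469, minus strand) had 69.2, 72.6, 72.3 and 68.6 CPM in the tDR libraries, against 77.0, 68.9, 78.3 and 84.5 CPM in the control libraries. Control replicate 2 lay inside the range of the tDR libraries, and the log2 fold change of RPL30 was -0.13 ± 0.0693 (SE, edgeR, adjusted p = 0.174). RPL30 passed without control replicate 2 (edgeR, log2 fold change -0.19, adjusted p = 0.0459) and with the correction over all genes, and had 0.12 with the correction on abundant coding genes.

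Among the other 22 members, which are spread over the rest of the subunit, 18 were tested and 17 fell, and the median log2 fold change was -0.26. RPL6 (chromosome 12, 112405190 to 112418838, minus strand) had 658, 703, 668 and 646 CPM in the tDR libraries, against 938, 834, 836 and 834 CPM in the control libraries. Its groups were far apart, and the log2 fold change was -0.36 ± 0.0445 (SE, edgeR, adjusted p = 7.73e-09). RPL21 (chromosome 13, 27251309 to 27256691, plus strand) had 177, 168, 153 and 148 CPM in the tDR libraries, against 213, 217, 199 and 202 CPM in the control libraries. The groups did not overlap, and the log2 fold change was -0.37 ± 0.0544 (SE, edgeR, adjusted p = 6.49e-07). The other 15 called members of this group, from RPL36 to RPL18, had log2 fold changes between -0.30 and -0.19. RPL28 (chromosome 19, 55385345 to 55403250, plus strand) did not pass, with 301, 302, 299.5 and 279 CPM in the tDR libraries, against 292, 332, 349 and 309 CPM in the control libraries. Control replicate 1 lay inside the range of the tDR libraries, and the log2 fold change of RPL28 was -0.12 ± 0.0499 (SE, edgeR, adjusted p = 0.0791). It passed without control replicate 1 (edgeR, log2 fold change -0.16, adjusted p = 0.00558) and without control replicate 4 (-0.15, 0.0489). It also passed with DESeq2, with no filter and with the correction over all genes, and had 0.04 with the correction on abundant coding genes.

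Tested members with a pyrimidine run that met the rule, between 5 bases before and 15 bases after the start, numbered 31, of which 28 were lower, with a median log2 fold change of -0.24 and a range from -0.44 to -0.12. RPL6, the 1 tested member whose window held no such run, had -0.36. The annotated start may not be the one used in these cells, and no start sites were measured. Over the 37 well-counted members the log2 fold change had a Spearman's rho of 0.16 with coding length, 0.36 with GC content and 0.22 with mean log2 CPM, as a description over genes that share the same 8 libraries.

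Low or absent counts kept 6 members out of the test. RPL15, RPL32 and RPL35A had 0 counts in all 8 libraries, and RPL17, RPL26 and RPL36A had 2, 3 and 17 counts over all of them. Each of these genes has processed copies in the genome, and pseudogenes named after the 6 genes held 1728 counts, 1000 of them on copies of RPL32. RPL17, RPL26 and RPL36A also overlap a coding gene on the same strand in the annotation (RPL17-C18orf32, AC135178.2 and RPL36A-HNRNPH2). So do the tested members RPL22 (AL031847.2) and RPL36 (HSD11B1L), which had 930 and 21370 counts over all libraries. The handling of reads that fit several genes is not stated, so a level of 0 is a property of the table and not a measurement that the mRNA is missing. Over all 45 members, 876 pseudogene rows held 10169 counts, 0.765% of the 1329557 counts on the members. Adding them to their parent genes gave 34 members lower of 44 tested, where 11.5% of genes were lower. The small nucleolar RNA genes inside members numbered 38, in 18 host genes, and only 1 had counts, 12 in all.

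A few members have a paralogue, a second gene related to them in sequence. Whether the protein of each paralogue takes the member's place in the ribosome was not tested. Of these 5 paralogues 4 were lower, with log2 fold changes of -0.33 for RPL7L1, -0.44 for RPL22L1, -0.28 for RPL26L1 and -0.38 for RPL36AL (edgeR, adjusted p = 5.27e-07, 0.00158, 0.000394 and 3.15e-07). RPL39L, which is used mainly in the testis, had 17.3, 19.6, 17.6 and 18.6 CPM in the tDR libraries, against 17.4, 17.9, 17.5 and 17.2 CPM in the control libraries. Its groups overlapped, and its log2 fold change was 0.07 ± 0.124 (SE, edgeR, adjusted p = 0.746). The log2 ratio of RPL39 to RPL39L was 3.31, 3.17, 3.20 and 3.25 in the tDR libraries, against 3.62, 3.64, 3.58 and 3.43 in the control libraries, a difference of -0.33 with no overlap. The log2 ratio of RPL7 to RPL7L1 differed by 0.05. Its lowest tDR value, -0.03571 in replicate 2, barely exceeded its highest control value, -0.03656 in replicate 1. The log2 ratio of RPL22 to RPL22L1 differed by 0.29. By exact permutation of the library labels (two-sided, 70 assignments), the adjusted p over the 3 pairs with counts was 0.0429 for RPL39 and RPL7, at the smallest p the design allows (0.0286 before adjustment), and 0.143 for RPL22. With each library left out the differences lay between -0.38 and -0.31 for RPL39 and between 0.0428 and 0.0673 for RPL7, and with pseudogene counts added they were -0.33 and 0.0510. The adjusted p was between 0.0571 and 0.114 with any 1 tDR library left out or with pseudogene counts added (exact permutation tests). With 7 libraries there are 35 assignments, while the run with pseudogene counts kept all 8 libraries. Why the threshold was missed in these runs was not tested, and the ratio calls depend on which libraries and counts are used.

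Lists of other ribosomal protein genes, other TOP mRNAs and assembly factors of the large subunit had medians between -0.24 and -0.19. Of 32 small-subunit protein genes, 28 of 29 tested were lower with a median log2 fold change of -0.24, the lowest being RPS26 at -0.45, which had 124 ± 7.45 CPM in the tDR libraries and 169.7 ± 4.25 CPM in the control libraries (SD, n = 4 each). Of 18 other mRNAs with a TOP motif, 13 of 16 tested were lower with a median of -0.22, among them NPM1, a nucleolar chaperone of ribosome assembly, at -0.43. NPM1 had 2303 ± 118 CPM in the tDR libraries and 3100.0 ± 58.1 CPM in the control libraries. Of 20 factors that assemble the large subunit, 11 of 18 tested were lower with a median of -0.19, BCCIP at -0.29 and the giant ATPase MDN1 at -0.20 among them. Of 49 genes for proteins of the mitochondrial large subunit, whose mRNAs come from the nucleus, 27 of 40 tested were lower with a median of -0.24. None of these lists held a gene called higher. Of 8 genes listed as regulators of TOP mRNAs and ribosomal protein genes, MYC was lower (log2 fold change -0.39, edgeR, adjusted p = 0.000223). MTOR, RPTOR, LARP1, EIF4EBP1, GABPA and YY1 did not pass, with log2 fold changes between -0.15 and 0.09. TBL1X was lower (-0.18, edgeR, adjusted p = 0.00475), but its place in that list is doubtful and it is not read here as such a regulator. No test was made of whether these lists differ from the large-subunit genes.

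**Figure D5:**
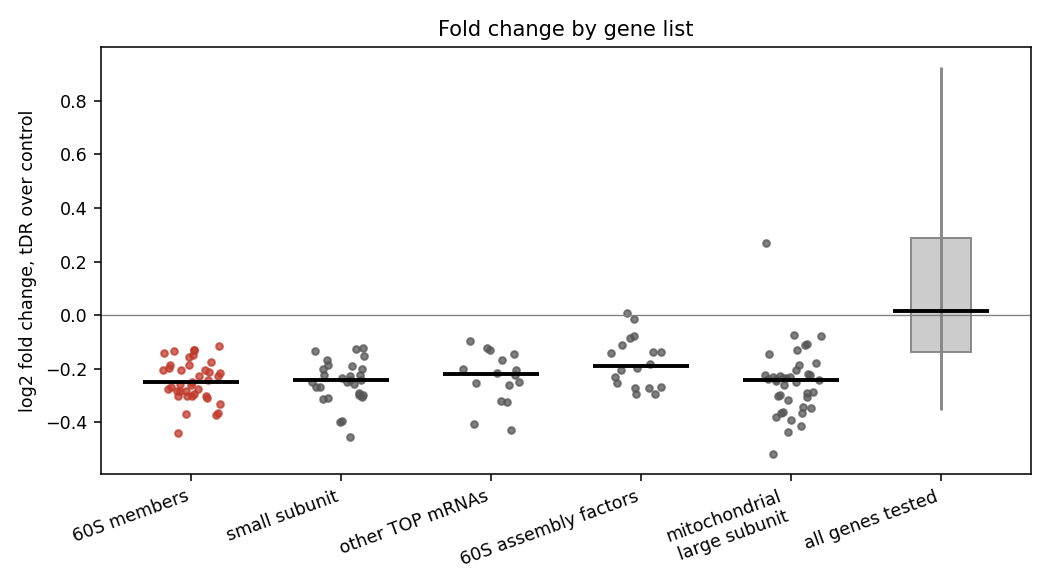
Log2 fold change, tDR over control, of each tested gene in the large-subunit list and in 4 lists of related genes, with a black line at each median; the grey box for all tested genes spans the middle 50% of genes and its line the middle 90%. The medians of the 5 lists lie between -0.25 and -0.19 and that of all tested genes at 0.02.

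Outside these lists, the genes whose log2 CPM followed the summed level of the 45 members most closely over the 8 libraries were NUP93 (Pearson's r 0.996), SOX4 (0.994), NCL (0.992), IPO5 (0.989) and PTGES3 (0.989). They were picked by that likeness among the non-member genes with a gene symbol out of the 17184 tested, so the values of r are a description. NCL encodes nucleolin, an abundant protein of the nucleolus, and IPO5 an importin that carries ribosomal proteins into the nucleus. Their log2 fold changes lay between -0.35 and -0.32, a direction that this choice fixes, since the summed level was lower in the tDR libraries.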

How the data were processed

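The deposited values were raw read counts by gene in 8 columns, 1 for each library. Per the labels' protocols, RNA was isolated by TRIzol and libraries were prepared with a stranded Pico-input total RNA kit. The submitters' processing notes name DESeq2 1.30.1, featureCounts 2.0.2, STAR 2.7.8a, cutadapt 2.10 and FastQC 0.11.9, and the builds GRCh38.p13 and hg38, without their roles. Counts of near-identical or overlapping genes are uncertain, since annotation release, strand setting and handling of multiply mapped reads were not given in the sources used here. GENCODE 29 (GRCh38) gave positions, lengths and gene types for 88.3% of the rows, and RefSeq (GRCh38.p14) the promoter windows.

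All 8 libraries entered 1 fit by group in edgeR 4.0.16 (R 4.3.3), with TMM scaling, its filter on low counts, which kept 17184 genes, and its quasi-likelihood F test. Calls were made at an adjusted p under 0.05, by Benjamini-Hochberg over those genes. The steps were tested on simulated counts. CPM use TMM-scaled library sizes, and paralogue ratios add 0.5 CPM to both genes. Every pair of libraries differed by more than counting noise (chi-square per degree of freedom 2.13 to 7.36), so none was counted as a repeat of another. The labels give no batch. Members, lists, roles and tests were chosen with earlier results of these data known. Values per library are given for the 6 lowest and 4 highest fold changes, the members that did not pass and the smallest p in each role.

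Alternatives were other scalings, filters and pseudocounts, DESeq2 1.42.0, the replicate number as a block, corrections for length and GC content, subtraction of background, addition of pseudogene counts and leaving out each library.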

Additional observations from a re-analysis of the deposited data

Results flagged for a closer look

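In 4 of the 86 groups of 4 libraries examined, 1 library lay far from the other 3 by Dixon's test at the 95% level. Chance gives about 1 in 20 such groups, and these are 4 single genes in 4 different libraries. RPL6 had 937.6 CPM in control replicate 1, against 833.9 to 835.8 CPM in the other control libraries, and it was called lower with and without that library. RPL28 had 278.8 CPM in tDR replicate 4, against 299.5 to 301.6 CPM in the other tDR libraries, and did not pass with or without it. RPL37 had 243.5 CPM in tDR replicate 1, against 211.8 to 214.7 CPM in the other tDR libraries. RPL38 had 339.3 CPM in control replicate 2, against 379.9 to 387.4 CPM in the other control libraries. RPL37 and RPL38 were called lower with and without those libraries.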

How the results depend on the processing

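The median log2 fold change of the members stayed below 0 under every alternative run, and none of them called a member higher, but the count of members lower and the size of the median moved. Members called lower numbered 18 with the correction for length and GC content fitted on abundant coding genes, which tested fewer members, and between 23 and 37 under the others. Their median was -0.28 with DESeq2, -0.20 with background subtracted, -0.37 with the correction over all genes and -0.10 with that fitted on abundant coding genes. It was -0.28 with no filter, -0.16 for genes of mean log2 CPM of at least 6, -0.17 with library size alone and -0.20 with upper quartile scaling. Library size alone and upper quartile scaling shifted the median of all genes up by 0.08 and 0.05. The median of all genes was -0.08 with the correction over all genes and 0.09 with no filter, against 0.02 in the reported fit. Genes called lower numbered 1160, 4105, 1150, 560, 907 and 1235 with background subtracted, the correction over all genes, the correction on abundant coding genes, the stricter filter, library size alone and upper quartile scaling, and genes called higher 1432, 1165, 797 and 631 with DESeq2, background subtracted, the correction on abundant coding genes and the stricter filter. The stricter filter and the correction on abundant coding genes tested fewer genes, and the stricter filter also rescaled the libraries on the genes kept. Under that filter the log2 fold change moved from -0.2485 to -0.1541 for RPL3 and from -0.4396 to -0.3453 for RPL24. For RPL10 it moved from -0.1305 to -0.036. Beyond this the cause was not tested. Transcript lengths of a few members are inflated by long annotated isoforms, which bears on both corrections. Among them are RPL37, RPL27A, RPL14 and RPL37A, at 7686, 4916, 3994 and 3647 bases, and all of these kept their call under every alternative. With the correction on abundant coding genes RPL27A had -0.214 and RPL14 -0.231, against reported values of -0.216 and -0.257, so their kept calls may reflect these lengths. Leaving out each library gave 32 to 36 members lower, medians of -0.27 to -0.23, 1511 to 2109 genes lower and 1640 to 2200 higher. Of the 34 called members, 15 kept their call under every alternative. RPL39 and RPLP1, both called, had log2 fold changes of 0.0275 and 0.00207 with the correction on abundant coding genes, where RPL28 and RPL30 had 0.0384 and 0.124. RPL22 had 0.00439 with pseudogene counts added, and with each library left out RPL5 lay between -0.358 and 0.00579 (without control replicate 1). The paralogue ratios of RPL7 and RPL39 no longer passed with pseudogene counts added (differences 0.0510 and -0.33). With each library left out they lay between 0.0428 and 0.0673 and between -0.38 and -0.31. Same-numbered libraries showed little joint deviation (correlations -0.03 to 0.07). Such correlations cannot show whether the libraries were set up in pairs. With the replicate block 34 members were called lower and their median was -0.25, and over all genes 1834 were lower and 2040 higher. Counts of 560 for RPL5 and 930 for RPL22 over all libraries limit their precision.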
